A study of Cervus nippon with 40 samples.

Results

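The youngest and the oldest of 4 life stages of the Sika Deer were compared, organ by organ, for their miRNAs. The members were the 10 juvenile libraries (age 1 year) and the 10 aged libraries (age 10 years), 20 of the 40 small RNA libraries of the series, chosen by their stage label and paired by their labelled organ. The organs were heart, lung, liver, spleen, kidney, brain, adrenal, testes, skeletal muscle and antler. All animals were untreated male deer of the Shuangyang breed, and the study used 12 of them, with 3 for each stage. RNA of the 3 deer of a stage was pooled, so each organ gave 1 library per stage and the 10 libraries of a stage came from the same 3 animals. A difference between stages therefore cannot be told apart from a difference between these pools of deer. The p-values below take the organs as separate samples, and measure how alike the organs were and not the spread between deer.

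miRNAs are short RNAs that pair with messenger RNAs and lower their stability or translation, and those encoded close together are often cut from 1 long transcript. The DLK1-DIO3 domain is an imprinted chromosome region whose large miRNA cluster is read from the maternal copy, and these miRNAs are abundant in the embryo and the placenta and remain so in the brain. let-7 miRNAs are known for the opposite course, with levels that rise as tissues mature, and miRNAs such as miR-1, miR-133 and miR-150 are known for the cell types that make them.

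The juvenile libraries held 214726 to 7759033 miRNA reads (median 738374) and the aged libraries 41866 to 6024699 (median 880821.5), with the fewest in aged testes. One read stood for 0.129 to 4.66 reads per 1000000 (RPM) in juvenile and 0.166 to 23.9 RPM in aged libraries. Cattle names took 99.65% or more of the reads of every library. Of these names, 307 had a read in the 20 libraries and 109 passed the minimum of 10 reads in at least 4 libraries. Levels are given as scaled RPM, which are RPM divided by the library's TMM factor. That factor was 0.0518 in juvenile and 0.0695 in aged muscle, where miR-1 took 91.95% and 91.10% of the reads, and 0.428 to 2.86 in the other libraries, so scaled values are to be read between the stages of an organ.

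Most libraries matched their labelled organ. In 16 of 20, the most similar of the other 19 libraries was the other stage of the same organ, and the 4 exceptions were both spleen and both testes libraries. miR-124a of neurons was highest in brain, miR-206 in muscle, miR-208a in heart and miR-199a-3p in antler at both stages. Of these, miR-208a in aged heart rested on 1 read, and miR-206 in muscle on 15 juvenile and 6 aged reads. Among aged libraries miR-208b was higher in muscle (47.8 scaled RPM) than in heart (35.1, from 30 reads). That order depends on the TMM factors, 0.0695 for aged muscle and 0.944 for aged heart. miR-192 was highest in kidney among juvenile and in liver among aged libraries. Other markers of these organs gave no check: miR-122 of liver was not listed, and miR-204 had 0 juvenile reads and 1 aged read in kidney. miR-150, a lymphocyte miRNA, was highest in spleen among juvenile libraries at 129 scaled RPM, whereas the library labelled aged spleen held 23.3 and ranked 5 of 10. miR-1 took 5.21% of the reads of that library and 0.542% in juvenile spleen. Of the germ-line markers, miR-202 had 7 reads in juvenile testes and 0 in aged testes, which allows up to 3 reads, and miR-449a had 0 in both. Values without the spleen, and without spleen and testes, are given beside the calls they change. In whole organs, fewer cells of a type and less RNA per cell cannot be told apart.

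The question of this comparison was which miRNAs differed with age in the same direction across organs. miR-409a was lower in aged libraries in 9 of 10 organs. miR-22-3p was higher in 10 of 10, and miR-339a and miR-339b were higher in 9 of 10. These passed the limits that the study used, an adjusted p under 0.01 and an absolute log2 difference above 1, in a limma model with organ as a block. In all, 5 of 109 miRNAs (4.59%) passed, 1 lower (0.917%) and 4 higher (3.67%) in aged libraries. The 5th name, miR-3600, held the same reads as miR-22-3p to within 1 read and is its second name. The 4 rises therefore stand for miR-22 and the miR-339 pair. The calls depended on such double names. With near-identical names counted once, limma called 0 of 102, and the adjusted p of miR-409a was 0.0126.

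At an adjusted p under 0.05 in limma, 7 miRNAs were lower (6.42%) and 8 higher (7.34%) in aged libraries. Scaled to total reads instead, which moved the median difference of all miRNAs up by 0.15 on the log2 scale, the split was 5 lower and 12 higher. The 5 calls lay just inside the limit, with an adjusted p of 0.0097 each. With 1 of antler, brain, heart, kidney, lung, liver, muscle or testes left out, limma called 0, while 27 to 35 miRNAs had an unadjusted p under 0.05 there against 33 (30.3%) with all organs. Without the spleen, 4 were called lower and 4 higher, and without the adrenal 3 and 3.

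miR-409a, a member of the DLK1-DIO3 cluster, ranged over juvenile libraries from 199.8 scaled RPM in heart to 6573 in adrenal, with a median of 882. Over aged libraries it ranged from 24.6 in heart to 7193 in adrenal, with a median of 176. The groups overlapped, also apart from adrenal and brain, which were highest at both stages, but within organs the aged value was lower in every organ other than the adrenal. The mean log2 difference was -1.96 (SE 0.39, n = 10 organs; limma adjusted p = 0.00972). Muscle differed most, with 771 reads against 25, a log2 difference of -4.98, and the exact 95% interval of its ratio of aged to juvenile was 0.0200 to 0.0463. In the adrenal it was slightly higher, at 1.09 times the juvenile level (interval 1.06 to 1.13). These intervals cover counting error only. For all 9 lower values the interval excluded 1. Over 22 other settings the log2 difference lay between -2.26 and -1.80 and the adjusted p between 1.56e-05 and 0.359, the highest without organ as a block. Without spleen and testes it was -1.99 with an adjusted p of 0.0145 in limma, and no longer called.

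miR-493, also of the DLK1-DIO3 cluster, was a rare miRNA with 336 reads over the juvenile and 107 over the aged libraries. Juvenile levels ran from 2.86 scaled RPM in brain to 89.6 in muscle (median 33.9), and aged levels from 0 in brain, muscle and testes to 46.6 in spleen (median 5.45). It was lower in 8 organs, with intervals that excluded 1 in 6 of them, and the 2 higher values, in antler and spleen, had intervals that included 1. The mean log2 difference was -2.31 (SE 0.67, n = 10; limma adjusted p = 0.0335, not called; 0.00240 to 0.359 over 22 other settings). Over those settings the log2 difference lay between -2.58 and -1.16. Muscle went from 36 reads to 0, and against the limit of 3 reads that a count of 0 allows this was at least 12.5-fold lower. Testes went from 55 reads to 0, at least 1.96-fold lower by the same limit, though it entered the mean at -5.65. In lung it went from 89 to 10 reads and in kidney from 40 to 13.

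miR-140, which is made by cartilage cells, was highest in the antler at both stages. Juvenile levels ran from 10.9 scaled RPM in heart to 448 in antler (median 59.5), and aged levels from 8.34 in testes to 135 in antler (median 35.2). The ranges overlapped, and the aged value was lower in 9 organs, with the heart as the exception at 12 juvenile and 13 aged reads. The mean log2 difference was -1.19 (SE 0.35, n = 10; limma adjusted p = 0.0335, not called; 0.00280 to 0.359 over 22 other settings). The log2 difference was -1.72 in antler and -1.62 in adrenal. For 7 of the 9 lower values the interval excluded 1, and in brain and muscle it did not. The other cartilage name with a read, miR-455-3p, went the other way in reads, with 33 juvenile and 55 aged, and was not tested.

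**Figure D1:**
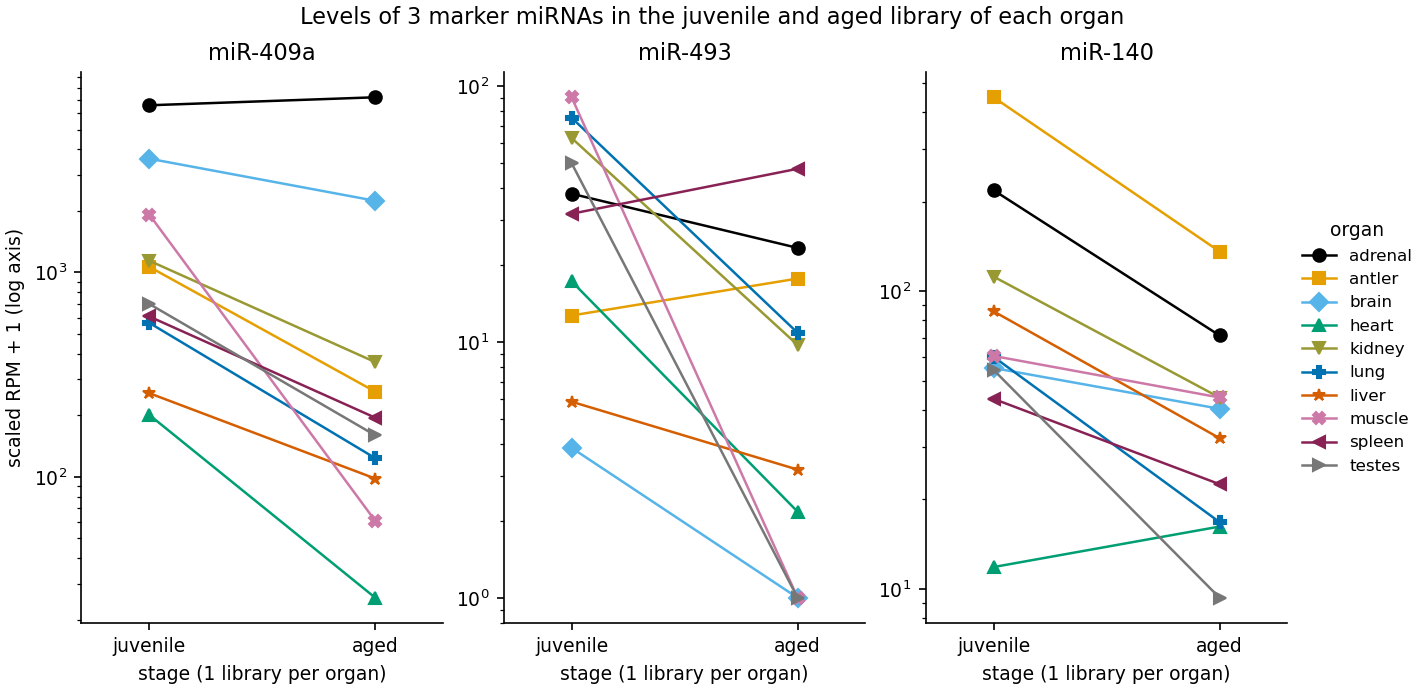
Scaled RPM + 1 on a log axis in the juvenile and the aged library of each organ, for miR-409a, miR-493 and miR-140. Each line joins the 2 libraries of 1 organ. Lines fall in 9, 8 and 9 of 10 organs, and adrenal and brain stay highest for miR-409a.

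The DLK1-DIO3 cluster was the list that stood lowest among those with several tested members. Of its 29 names with a read, 6 were tested, and the mean difference of each of the 6 was below 0, against 55 of all 109 (50.5%). Of the 6, 1 was called lower (miR-409a), beside 1 of all 109 (0.917%). Lower in at least 9 organs were 2 of the 6 (miR-409a and miR-134), beside 9 of all 109 (8.26%). The median log2 difference of the 6 was -1.65, beside -0.07 over all miRNAs tested. Without spleen and testes it was -1.60. The list was chosen with earlier results of these data known.

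The most abundant member, miR-409b, went from a median of 2513 to 713 scaled RPM (1613 to 19265 over juvenile and 52.6 to 36155 over aged libraries). It was lower in 8 organs, and higher in adrenal and brain, where it was 1.88 and 1.35 times the juvenile level. Its mean log2 difference was -1.63 (SE 0.48; limma adjusted p = 0.0335), and without the adrenal it was -1.99 and called. miR-134, known in neurons for its action on dendritic spines, had 150 juvenile and 56 aged reads and a mean log2 difference of -1.66 (SE 0.51; limma adjusted p = 0.0430), with 9 organs lower and spleen higher. At these depths the interval excluded 1 in 2 organs only, adrenal and brain.

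The cluster did not move alike in all organs. The median of the 6 was below 0 in 9 organs, from -4.99 in muscle to -0.12 in brain, and was 0.52 in the adrenal. Summed over all 29 names, muscle went from 1832 reads to 51, or from 4558 to 122 scaled RPM. Adrenal and brain went the other way, from 26617 to 46531 and from 8715 to 12588 scaled RPM, while the other 8 organs were lower. In adrenal most of the sum was miR-409b at both stages. Among the members, miR-433, named here after its values were seen, was furthest above its juvenile level in both organs, going from 623 to 5691 reads in adrenal and from 911 to 4104 in brain, or 4.62 and 5.31 times the juvenile level after scaling. The same miRNA was 0.0800 times its juvenile level in muscle and 0.172 times in spleen. miR-431 was likewise 2.83 times higher in adrenal and 2.01 times in brain, and 0.0223 times its juvenile level in muscle. With 1 library per organ and stage, these organ differences have no replicate check.

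**Figure D2:**
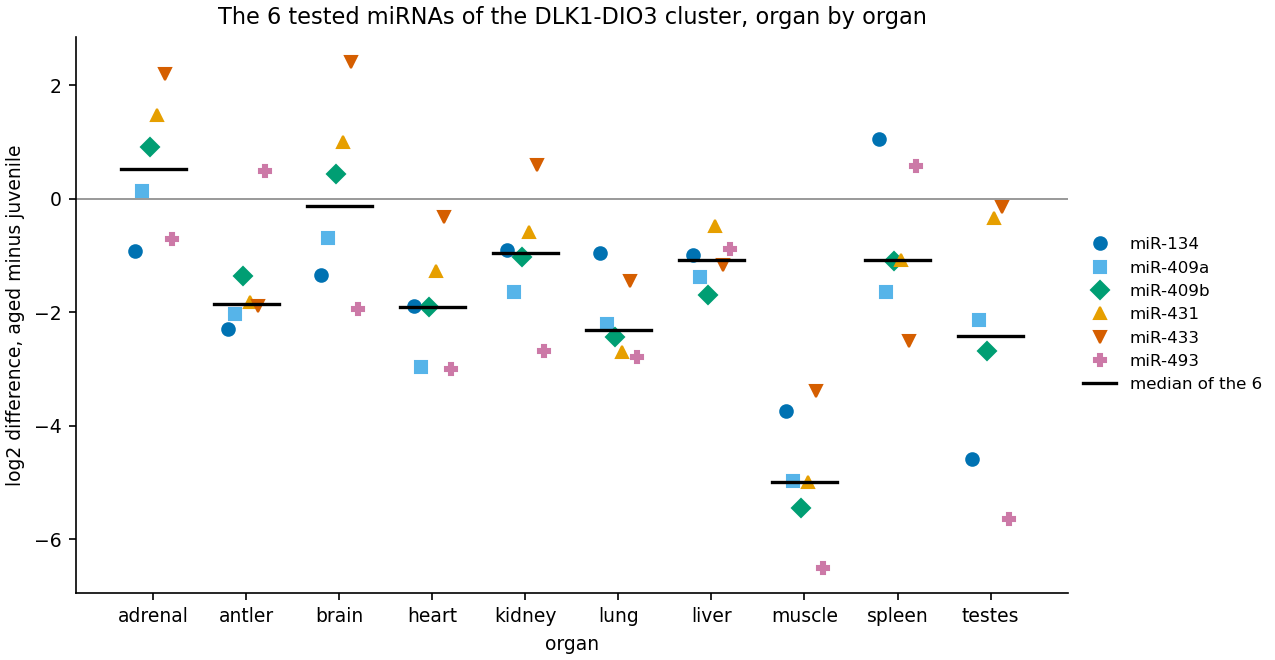
Log2 difference (aged minus juvenile) of the 6 tested DLK1-DIO3 miRNAs in each organ, 1 symbol per miRNA, with a black bar at their median. The muscle median is -4.99 and the adrenal median 0.52, and miR-433 lies above 2 in adrenal and brain.

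miR-3957, named after its values were seen and not on the list, had the same layout. It was higher in adrenal (2.06 times) and brain (1.77 times) and lower in the other 8 organs, down to 0.0223 times in muscle (43 reads to 1), with a mean log2 difference of -1.86 (limma adjusted p = 0.0335).

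miR-22-3p led the rises in its regularity. It ranged from 859 scaled RPM in testes to 8893 in liver over juvenile libraries (median 2789) and from 2856 in antler to 17992 in muscle over aged libraries (median 5912). The ranges overlapped, yet each organ was higher at the aged stage, from 1.10 times in adrenal to 4.05 times in testes, and the interval excluded 1 in all 10. The mean log2 difference was 1.08 (SE 0.24, n = 10; limma adjusted p = 0.00972; 0.000853 to 0.359 over 22 other settings). Without spleen and testes it was 0.86 and not called. The other strand of the same hairpin, miR-22-5p, named after its values were seen, was higher in 9 organs and lower in adrenal, with a mean of 1.06 (limma adjusted p = 0.0576).

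miR-339b ranged from 57.2 scaled RPM in muscle to 3589 in liver over juvenile libraries (median 384) and from 362 in antler to 6301 in liver over aged libraries (median 1503). Brain differed most, with 225 reads against 1682, or 8.82 times the juvenile level (interval 7.67 to 10.2), followed by muscle at 6.39 and kidney at 6.10 times. Spleen alone was lower, at 0.837 times. The mean log2 difference was 1.66 (SE 0.33, n = 10; limma adjusted p = 0.00972; 0.000192 to 0.359 over 22 other settings), and it was called also without spleen and testes, at 1.85. miR-339a, a closely related name that may share reads with it, had a mean of 1.54 (SE 0.34; adjusted p = 0.00972 in limma) and the same exception.

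miR-490, encoded in an intron of the muscarinic receptor gene CHRM2, was higher in all 9 organs in which it had a read. It was highest in heart, at 506 juvenile and 1954 aged scaled RPM, and had no read in muscle at either stage. Medians were 62.8 and 199.3 scaled RPM, both groups reached down to 0, and the intervals excluded 1 in 7 organs. The mean log2 difference was 1.48 (SE 0.35; limma adjusted p = 0.0135, not called), in a fit that enters the muscle pair at 0. miR-29a, of a family known to act on collagen messages, had 149 juvenile and 291 aged reads. It was higher in 9 organs and lower in adrenal, with a mean of 1.43 (SE 0.40; limma adjusted p = 0.0335, not called).

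**Figure D3:**
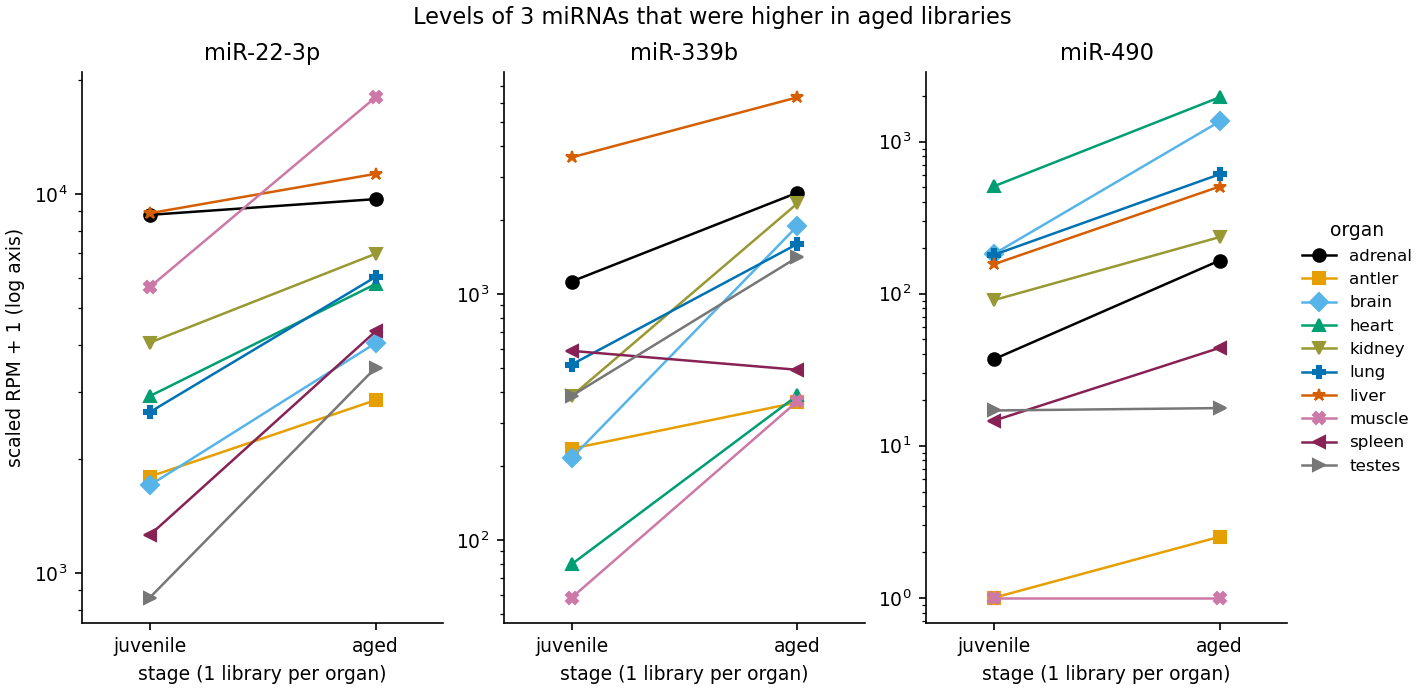
Scaled RPM + 1 on a log axis in the juvenile and the aged library of each organ, for miR-22-3p, miR-339b and miR-490. Each line joins the 2 libraries of 1 organ. All 10 lines rise for miR-22-3p, 9 rise for miR-339b with spleen falling, and miR-490 lies at no read in muscle.

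Counting organs without a test gave 22 of 109 miRNAs (20.2%) with 1 direction in at least 9 of 10 organs, 9 lower (8.26%) and 13 higher (11.9%). None was lower in all 10, and miR-22-3p and its second name were higher in all 10. The spleen was the organ against in 7 of the 22. Without it, 3 miRNAs were lower in all 9 organs left (miR-134, miR-1388-5p and miR-215) and 6 higher (let-7d, miR-150, miR-22-3p with its second name, miR-339a and miR-339b). Several of these directions rested on few reads. Lower values with an interval that excluded 1 numbered 2 organs for miR-134, 7 for miR-1388-5p and 4 for miR-215. In heart and in lung miR-215 held 1 read against 0, and in antler 1 against 1. miR-150 was higher with such an interval in 4 organs. Without spleen and testes, 23 of 109 were lower and 22 higher in at least 7 of 8 organs. That limit is easier to reach than 9 of 10, so the 2 sets of counts are not comparable. miR-378 is encoded in an intron of PPARGC1B, a regulator of mitochondrial metabolism, and 3 names of its family were among the 9 lower. They were named after their values were seen, may share reads, and had mean differences of -0.70 (miR-378), -0.59 (miR-378c) and -1.06 (miR-378d), none called. A further tested name of the family, miR-378b, was lower in 7 organs and higher in 3, with a mean of -0.63.

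**Figure D4:**
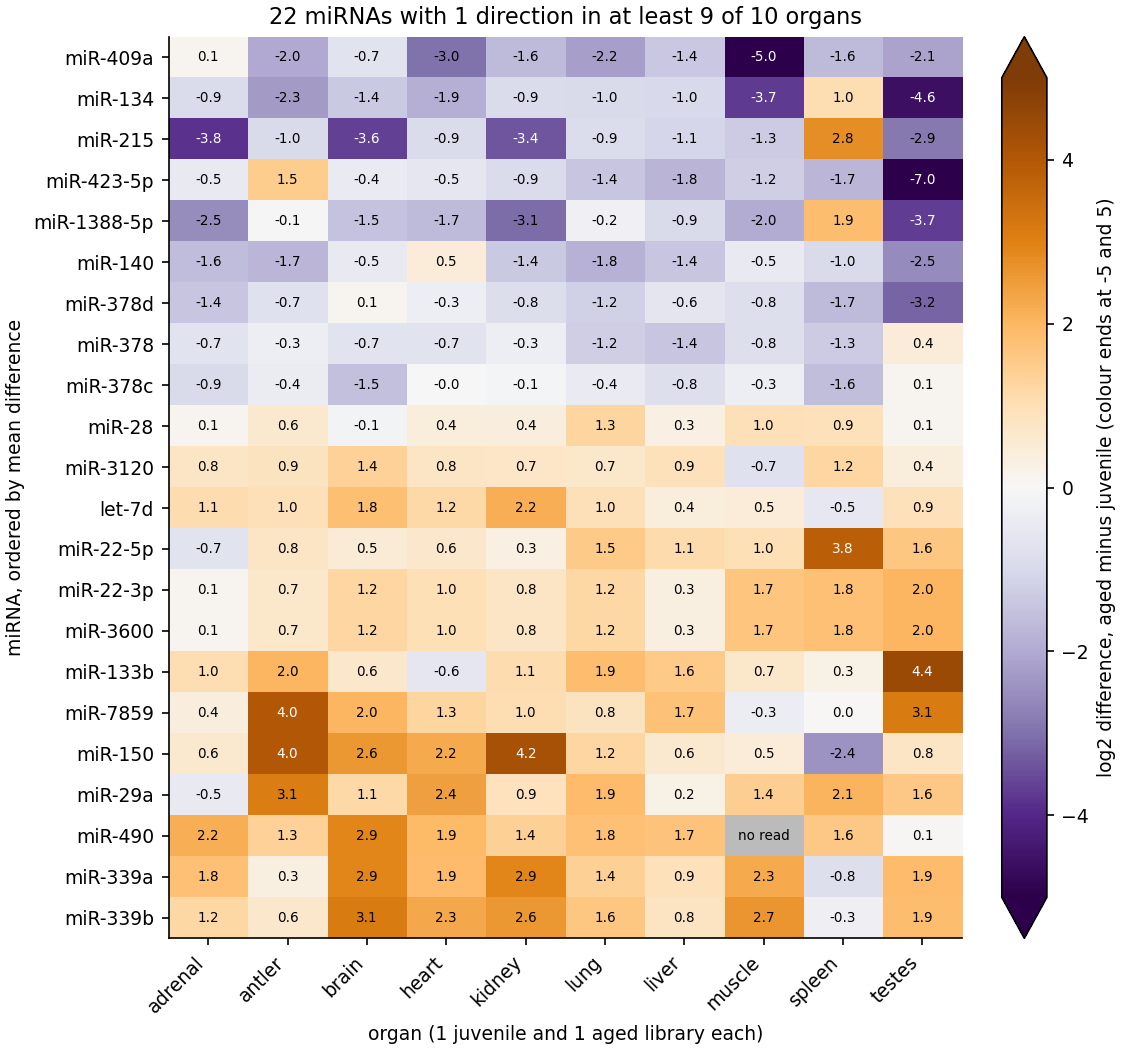
Log2 difference (aged minus juvenile) in each organ for the 22 miRNAs with 1 direction in at least 9 organs, written in each cell and coloured from purple (lower in aged) to orange (higher). The spleen column goes against the row in 7 miRNAs, and the grey cell had no read.

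The remaining miRNAs that were lower in most organs were called only in some settings or in none. miR-215, which shares its seed with miR-192, had medians of 6.85 and 0.760 scaled RPM and a mean of -1.61 (SE 0.59; limma adjusted p = 0.0756, not called), with spleen higher. miR-192, abundant in kidney and liver, was lower in 8 organs with a mean of -1.17 (SE 0.34; limma adjusted p = 0.0335, not called). In kidney it went from 137814 to 38819 scaled RPM, and antler and spleen were higher. Without the spleen both were called, at -2.08 and -1.37. miR-7, a miRNA of endocrine cells and neurons named after its values were seen, was lower in 8 organs with a mean of -1.12 (SE 0.50; limma adjusted p = 0.139, not called). It was called without the spleen (-1.56) and without spleen and testes (-1.84), the 2 organs in which it was higher. miR-423-5p had a mean of -1.40 (SE 0.60; limma adjusted p = 0.134), which was -0.75 when the testes, with 0 aged reads, were left out. miR-1388-5p had a mean of -1.38 (SE 0.49; limma adjusted p = 0.0704), with spleen higher.

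The let-7 family had 6 tested members of 7 with a read, of which 0 were called and 1, let-7d, was higher in at least 9 organs. Of all 109 tested, 5 were called (4.59%) and 13 were higher in at least 9 organs (11.9%). The median log2 difference of the 6 was 0.66, beside -0.07 over all tested, and was above 0 in 8 organs, with kidney highest at 2.08 and spleen lowest at -0.64. let-7d had a mean of 0.94 (SE 0.29; limma adjusted p = 0.0430), let-7a-5p 0.77 (adjusted p = 0.0796) and let-7c 0.67 (adjusted p = 0.178), also from limma. The means of 2 members were below 0. let-7i was lower in 8 organs with a mean of -0.80 (adjusted p = 0.167 in limma), and miR-98, named after its values were seen, was lower in 5 with a mean of -0.36 (adjusted p = 0.754 in limma).

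Markers of single cell types moved in some organs. Of 7 striated muscle names with a read, 4 were tested and 0 called, with a median of 1.22. That median rested on the miR-133 names: miR-133b and miR-133c, which may share reads with miR-133a, had means of 1.29 and 1.16. The untested names had fewer aged reads: miR-206 went from 15 to 6, miR-208a from 16 to 1 and miR-208b from 52 to 50. miR-133a was higher in 8 organs with a mean of 1.53 (SE 0.54; limma adjusted p = 0.0669), and the testes pair, at 38.3 against 2494 scaled RPM, was 65.0-fold higher. Without spleen and testes the median of the list was 0.92. miR-1, made with miR-133a in muscle, was lower in 6 organs, with a mean of -0.71 (SE 0.61; limma adjusted p = 0.487). Its share of heart reads was 57.8% in the juvenile and 15.1% in the aged library. The part of muscle tissue in the collected pieces was not tested.

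Of the white cell names, 3 had a read and 2 were tested, with a median of 0.48, and the list's sum ranged from 17.4 to 158 scaled RPM over juvenile and from 7.79 to 2191 over aged libraries. miR-150 was higher in 9 organs, with a mean of 1.43 (SE 0.58; limma adjusted p = 0.105), and its largest difference was in kidney, with 2 reads against 111. The other tested name, miR-142-5p, a miRNA of blood cells, was lower in 5 organs and higher in 5, with a mean of -0.47 (SE 0.92; limma adjusted p = 0.754). In kidney it went from 30 reads to 13 and in testes from 94 to 0, while the library labelled aged spleen held 1190 reads against 49 in juvenile spleen. The red cell name miR-486 had a mean of -0.23 (SE 0.26) and was lower in 6 organs, and miR-451 had 0 juvenile and 5 aged reads. miR-145 of smooth muscle had a mean of 0.28 (SE 0.21), and its partner miR-143 had 25 and 51 reads. Of 7 neuronal names with a read, miR-124a alone was tested. In brain, with 1 library per stage, miR-124a went from 66852 to 34225 reads, or from 63676 to 38459 scaled RPM. Over all organs, miR-128 and miR-212 each went from 5 to 14 reads, miR-383 from 0 to 18 and miR-219-3p from 0 to 3. miR-153 went from 7 to 2 reads and miR-488 from 3 to 2.

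None of the other lists held a call. The medians were 0.25 for 4 tested miR-30 names, -0.30 for 4 miR-199 and miR-214 names, -0.30 for 6 miR-2284 and miR-2285 names, a family known from ruminants, and 0.15 for 6 names that fragments of other RNAs can match. Single tested members stood for the miR-17 to miR-92 clusters (miR-17-5p, mean 0.57) and the miR-424 to miR-450 cluster (miR-424-5p, mean -1.52; limma adjusted p = 0.134). No tested name was on the lists of miR-34 and miR-449, of epithelium, and of miRNAs hosted by IGF2 and MEST.

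Within single organs, a miRNA was compared where 1 of its 2 libraries held at least 10 reads. Over all organs, 240 of 942 such pairs were past 2-fold lower (25.5%) and 226 past 2-fold higher (24.0%). Testes had the largest share lower (39.4%) and brain the largest share higher (37.6%), and liver the fewest of both kinds together, with 21 lower (22.6%) and 14 higher (15.1%) of 93. Aged testes held 41866 reads against 535668 in juvenile testes, so a low or absent aged count there carries little weight. In testes miR-134, at 26 reads against 0, counted as lower though its interval reached 1.43 times. The part of depth in the testes share was not tested. Among miRNAs whose mean over the other 9 organs was past 0.5, kidney had the direction of the others in 46 of 51, liver in 45 of 52 and spleen in 17 of 48.

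Among miRNAs with at least 100 reads in 1 library of the organ, the furthest down in brain was miR-26a, from 319421 to 27857 scaled RPM. It was lower in 8 organs, and further down in testes than in brain. In heart, miR-216b, best known from the pancreas, went from 264 reads to 0, while in liver it went from 40 to 581. In kidney, miR-135b went from 545 to 21 reads, a log2 difference of -5.80. With the same minimum, miR-1 was furthest down in adrenal, from 4136 to 772 reads, beside log2 differences of -3.07 in heart and -2.93 in kidney, and miR-342 was furthest up in antler, from 4 to 123 reads. These have 1 library on each side and no replicate check.

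The libraries of the 2 stages between, adolescence (3 years) and adult (5 years), placed the aged values on a course. miR-409a was highest at the juvenile stage in 9 organs and was lower at each later stage than at the one before in 5. Its mean log2(scaled RPM + 1) over organs was 9.88 ± 1.59 (SD, n = 10), 8.68 ± 1.91, 8.04 ± 2.22 and 7.85 ± 2.41 from the youngest to the oldest stage. miR-493 was lower than juvenile in 10 organs at adolescence, in 10 at the adult stage and in 8 at the aged stage, with most of the difference in the first step (4.65 ± 1.54 to 2.60 ± 1.62). miR-140 was 6.19 ± 1.39 at the juvenile stage and 5.94 ± 1.48 at adolescence, where 5 organs were lower, and was lower in 10 organs at the adult stage (4.80 ± 1.08). These comparisons share the juvenile libraries.

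**Figure D5:**
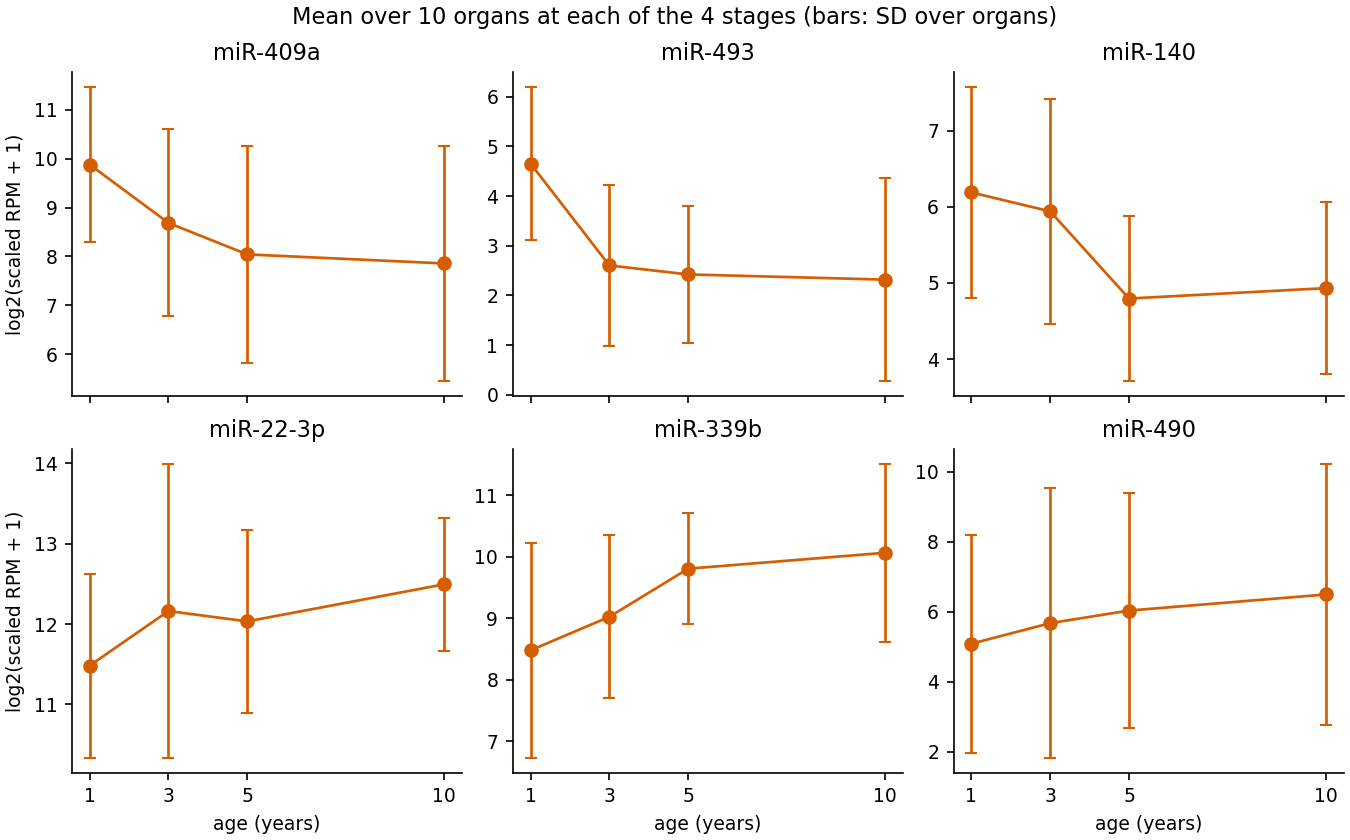
Mean log2(scaled RPM + 1) over 10 organs against age in years for 6 miRNAs, with bars for the SD over organs. miR-409a, miR-493 and miR-140 start highest at 1 year, miR-22-3p, miR-339b and miR-490 start lowest, and the bars are wide because organs differ in level.

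Among the rises, miR-22-3p was higher than juvenile in 7 organs at adolescence and in 6 at the adult stage, with means of 11.48 ± 1.15, 12.16 ± 1.83, 12.03 ± 1.14 and 12.50 ± 0.83 from the youngest to the oldest stage. miR-339b was higher than juvenile in 7 organs at adolescence and 8 at the adult stage, and miR-490 in 7 at both. The same count of agreement, 1 direction in at least 9 organs, was made for each pair of stages. Aged against juvenile gave 22 of 109 miRNAs (20.2%), which count miR-22-3p under 2 names. Adult against juvenile was close, with 21 of 108 (19.4%), and adolescence against juvenile gave 11.8%. The pairs without juvenile libraries gave 10.2% (aged against adult), 6.67% (adult against adolescence) and 4.67% (aged against adolescence). With these limits limma called 1 lower and 6 higher for adult against juvenile, and 0 for the other 4 pairs, in which 11 to 23 miRNAs had an unadjusted p under 0.05. For adult against juvenile 41 had an unadjusted limma p under 0.05, and for aged against juvenile 33. The pairs share libraries, and the differences between them were not tested.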

How the data were processed

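Small RNA libraries of 10 organs at 4 stages were analysed, 1 library per organ and stage, each from the pooled RNA of 3 deer. The deposited values are RPM: the authors matched reads to cattle names of miRBase and to predicted miRNAs and divided by the miRNA reads of the library. The file headers say tpm, but no length enters. The submitters' processing notes name CASAVA, bcl2fastq 1.8.4 and Bowtie. Names without a read are not listed, and were taken as 0. Whole reads were recovered from the RPM steps: 100% of 7982 values were within 0.01 of a whole number. In antler files, miR-148c (167 reads) was counted as miR-2957.

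Only names starting bta- were used, with at least 10 reads in at least 4 of the 20 libraries (109). log2(RPM + 1) after TMM scaling (edgeR 4.0.16) was tested with limma 3.58.1 in R 4.3.3, stage with organ as a block, with Benjamini-Hochberg adjustment, since the study's own test takes 2 libraries without replicate spread. Fold changes of rare miRNAs with reads in both libraries are understated by the pseudocount. Where 1 read is far above 1 scaled RPM, as in aged testes, a count of 0 can overstate a fall. There, miR-493 (55 reads to 0) entered at a log2 difference of -5.65, while the counts gave at least 1.96-fold lower. edgeR's quasi-likelihood test and DESeq2 1.42.0 on the recovered reads, other scalings, filters and omitted organs were alternatives, and the steps were tested on simulated data. Pairing comes from the labelled organ: deviations from the stage means correlated by 0.199 to 0.883 within an organ, and by -0.160 for spleen. Organ read ratios have exact 95% binomial intervals. PCR reads are not independent molecules, so these cover counting error only. Differences within an organ have no test.

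Members and lists were chosen with earlier results of these data known. Named were the 3 markers (miR-409a, miR-493, miR-140), all called miRNAs, the 5 largest falls and rises with at least 9 organs in agreement, up to 4 members of each list by size of difference, and the largest fall and rise within an organ with at least 100 reads. Python 3.11.15, pandas 2.3.3, numpy 2.4.6 and scipy 1.17.1 were used.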

Additional observations from a re-analysis of the deposited data

Results flagged for a closer look

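Among the named miRNAs, 6 organ differences lay far from those of the other organs. Chance alone puts about 1 in 20 groups in this class, and 56 groups were looked at. Spleen stood apart for miR-215, at a log2 difference of 2.77 while the other 9 organs were lower, for miR-424-5p, at 3.76, and for miR-22-5p, at 3.83. Testes stood apart for miR-423-5p, at -7.02, where the aged library had no read, for miR-98, at -6.55, also with no aged read, and for miR-133b, at 4.42. These are the organs whose libraries were nearest to another organ, and aged testes had the fewest reads.

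Names of predicted miRNAs, given by number and used in no comparison, held 8373 reads over the juvenile and 8615 over the aged libraries, above the limit of 3 reads that a count of 0 allows. They made up 0.00488% to 0.346% of the reads of a library.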

How the results depend on the processing

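The 5 called miRNAs kept their direction in all 109 recomputed means. Of 51 other named miRNAs, 6 changed sign in 1 setting or more: miR-30a-5p (-0.68 to 0.39), miR-142-5p (-1.16 to 0.23), miR-98 (-0.76 to 0.36), miR-124a (-0.82 to 0.21), miR-214 (-0.12 to 0.31) and miR-30b-5p (-0.02 to 0.46). The calls (1 lower, 4 higher) fell to 0 in limma scaled to total reads, with or without miR-1, or to DESeq2 size factors. The same held with a pseudocount of 10 RPM or with near-identical names counted once. Of the 102 to 109 miRNAs tested in these settings, 31 to 34 had an unadjusted limma p under 0.05. Without a minimum of reads limma also called 0, and 40 of 307 had an unadjusted p under 0.05. edgeR also called 0 and 0 (33 unadjusted, 1 lower and 5 higher at an adjusted p under 0.05), DESeq2 7 and 7, and a limma model of all 40 libraries 4 and 3. Without the replicate block for organ, limma called 0 and 0 (13 unadjusted), and miR-409a kept -1.96 with an adjusted p of 0.359. Under settings chosen after seeing the data, antler names as listed gave 1 and 4, and leaving out spleen and testes gave 1 lower (miR-7) and 2 higher, with 23 lower and 22 higher in all but 1 organ. Leaving out 1 organ gave 0 to 4 lower and 0 to 4 higher calls, 6 to 15 lower and 10 to 19 higher in all but 1 organ, and a log2 difference of -2.26 to -1.80 for miR-409a, -2.58 to -1.87 for miR-493 and -1.46 to -0.98 for miR-140. Agreement in all but 1 organ is easier to reach with fewer organs, so those counts are not comparable with the counts over 10 organs. Organ pairs past 2-fold ranged from 204 to 252 lower and 197 to 232 higher. miR-409a missed the limit at -1.81 (total reads), -1.98 (DESeq2 size factors), -1.95 (without miR-1), -1.87 (pseudocount), -1.96 (no minimum), -1.99 (names counted once, and without spleen and testes) and -1.90 (edgeR). miR-493 and miR-140 passed it with all 40 libraries (-2.34 and -1.26) and in DESeq2 (-2.23 and -1.22). The causes were not tested. The median of all miRNAs shifted by 0.15 with total reads, 0.11 with the larger pseudocount, 0.12 without a minimum, 0.13 in edgeR and 0.10 in DESeq2. Depth limits rare miRNAs in aged testes, where 1 read is 23.9 RPM.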
